A study of Homo sapiens with 6 samples.

Results

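Aminoacyl-tRNA synthetases join each amino acid to its transfer RNA (tRNA), and the genes described here are 35 of them, found by symbol among the 28862 genes of a deposited RNA-seq count table. By compartment, 17 encode enzymes of the cytosol, 16 encode enzymes of mitochondria, and GARS1 and KARS1 encode both forms of their enzyme. RNA came from SH-SY5Y, an established line derived from a human neuroblastoma and adrenergic in type, and the study was set up to profile the effect of SMN1 overexpression on transcripts. There were 2 groups of 3 libraries: cells given a control plasmid, and cells labelled as overexpressing SMN1, with no time point, vector or cell clone in the labels. The labels do not tie the 3 libraries of a group to independent cultures, and p-values then reflect only how these libraries vary, which may be technical.

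The libraries held 30379242 to 40275498 reads assigned to genes. The gene named in the label ran against it: SMN1 stood at 20.04, 20.4 and 19.6 CPM (read counts scaled to library size) in the control libraries and lower, at 14.8, 16.6 and 16.6 CPM, in the SMN1-labelled ones (edgeR adjusted p = 9.40e-05). Every direction below is therefore between libraries as labelled. Whether reads from introduced SMN1 would be counted under this gene is not given in the sources, and the cause was not tested. Of 10 adrenergic marker genes 9 were above 1 CPM, with a summed level of 18385 to 19669 CPM in the control and 20032 to 21121 in the SMN1-labelled libraries, and TH, the tyrosine hydroxylase gene, was the exception at 0.169 and 0.0201 CPM. Markers of mesenchymal-type cells summed to 795 to 830 CPM in the control and 615 to 682 in the SMN1-labelled libraries, most of it TWIST1. Of these 10 markers 6 were called lower and 0 higher, against 28.2% and 28.0% of all genes tested, and COL1A2 was not tested. Those of other cell types (PTPRC, GFAP, ALB, keratins and others) summed to 22.9 to 23.5 and 9.6 to 10.2 CPM, with ALB at 0 CPM in the control libraries. The part of these shifts in the results below was not tested.

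Each synthetase first activates its amino acid with ATP and then transfers it to the tRNA, and the accuracy of this step sets the accuracy of the genetic code. The enzymes fall into 2 unrelated catalytic classes. Most amino acids are served by a pair of nuclear genes, one for the cytosol and one for the mitochondrial matrix, where the charged tRNAs read the codons of the mitochondrial genome. Several cytosolic enzymes are held together with scaffold proteins in the multisynthetase complex, and many cytosolic synthetase genes are known targets of ATF4, the transcription factor of the amino acid and integrated stress responses. Mutations in members such as GARS1, YARS1, AARS1, HARS1 and MARS1 are known causes of inherited peripheral neuropathy.

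The synthetase genes moved in both directions, by small amounts. Of the 34 that passed the filter on low counts, 8 were higher and 14 lower in the SMN1-labelled libraries (edgeR quasi-likelihood test, Benjamini-Hochberg adjusted p at most 0.05 over all genes tested), and 12 were not called. Over all 15829 genes tested, 56.2% were called, 28.0% higher and 28.2% lower, so calls were common everywhere. On the deposited FPKM values (fragment counts scaled by gene length and depth) 62.5% of all calls were higher, against 49.8% on the counts. Of the 17 cytosolic genes 5 rose and 9 fell, and their median log2 fold change was -0.10. On the deposited FPKM values (limma on log2(FPKM + 0.1)) the majority turned, with 7 of the 17 higher, 4 lower and a median of -0.01. The median over all genes on that FPKM scale was itself 0.087. Of the 16 mitochondrial genes 15 were tested, 3 rose and 3 fell, with a median of 0.05. That median was 0.023 without control library 1, 0.004 without control library 3, 0.024 without SMN1-labelled library 3 and -0.023 without SMN1-labelled library 2, and on the same FPKM scale it was 0.14, with 6 higher and 2 lower. The cytosolic minus the mitochondrial median, -0.15, was -0.086 without control library 3 and -0.080 without SMN1-labelled library 2. The median over all genes tested was 0.001, and the log2 fold changes of the members ran from -0.50 for TARS2 to 0.41 for NARS1, all within 1.41-fold. For 8 members every SMN1-labelled library lay above every control library, and for 15 below, against 30.4% and 30.2% of all genes tested (60.7% in either direction). Levels in CPM are relative to library sizes scaled by TMM factors, and fold changes set SMN1-labelled against control libraries.

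**Figure D1:**
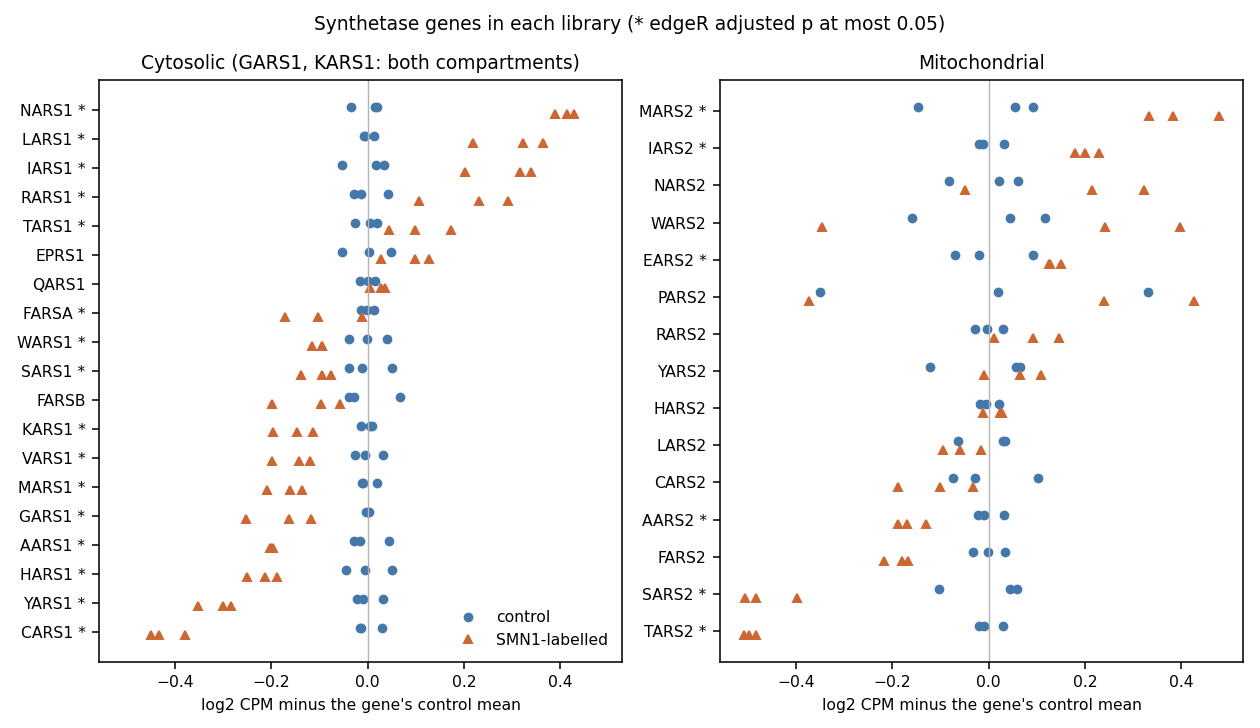
Each point is 1 library, plotted as its log2 CPM minus the mean of the 3 control libraries for that gene, with cytosolic and shared genes on the left and mitochondrial genes on the right, ordered by fold change. Asterisks mark the 22 genes called by edgeR, and the SMN1-labelled points (triangles) lie to the left of every control point for 15 genes and to the right for 8. PARS2 and WARS2 have the widest spread within a group.

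Cytosolic transcripts were the more abundant per length. In the control libraries the median deposited FPKM was 17.7 over the 17 cytosolic genes (2.69 for IARS1 to 96.6 for FARSA) and 3.39 over the 16 mitochondrial genes (0.01 for VARS2 to 20.6 for IARS2). Together the members supplied 0.376% to 0.397% of all reads. The FPKM values rest on the gene lengths the authors used, which can be read back from reads and FPKM. That implied length was between 1 and 1.1 times the exonic length of the GENCODE annotation for 22 of 35 members, but over 1.5 times it for 7. It was 18421 nt for GARS1, whose annotated exons join to 4152 nt, and 23776 nt for IARS1, 21890 nt for LARS1 and 15013 nt for HARS1. With the length of the principal annotated transcript in place of the implied length, GARS1 moved from rank 17 of the members to rank 5 (15.1 FPKM against 105 on the latter scale), HARS1 from 12 to 4 and LARS1 from 22 to 12. SARS1, KARS1 and FARSA held the first 3 ranks on both scales. The class order held as well, with medians of 44.2 and 6.84 per length of principal transcript.

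**Figure D2:**
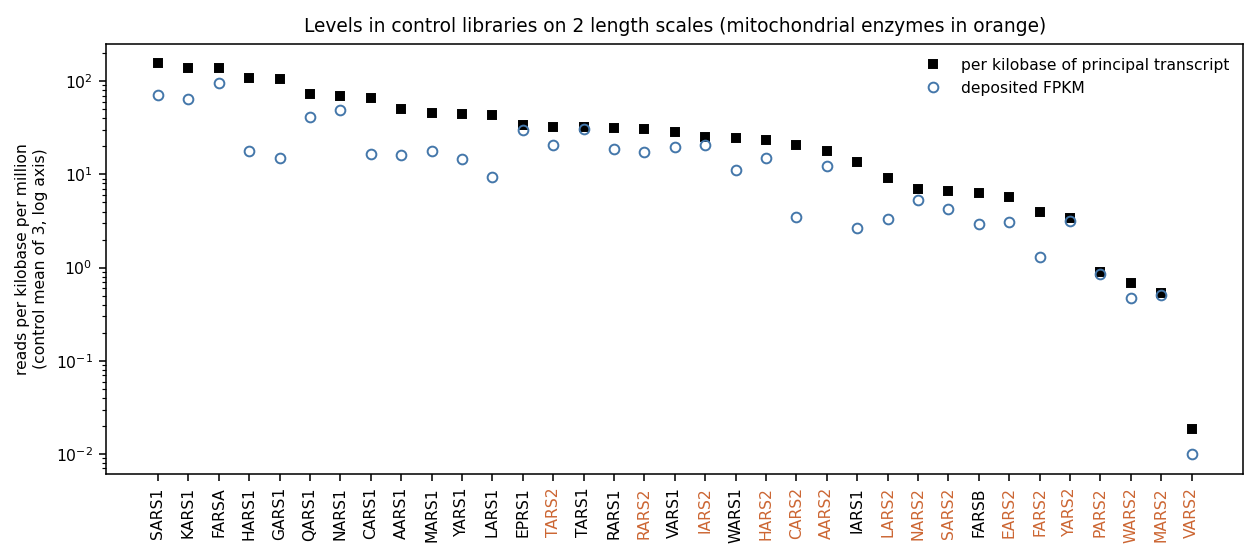
Mean level in the 3 control libraries for each member on a log axis, as deposited FPKM (circles) and as reads per kilobase of the principal annotated transcript scaled to the library total (squares), ordered by the latter, with mitochondrial enzymes labelled in orange. GARS1, HARS1, LARS1 and IARS1 show the widest gaps among those with long implied lengths, and VARS2 stands alone at the bottom.

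The cytosolic genes that rose were led by NARS1, which charges tRNA with asparagine (chromosome 18, 57600656 to 57622213, minus strand, GRCh38). NARS1 was at 214, 222 and 222 CPM in the control libraries and at 287, 295 and 292 CPM in the SMN1-labelled ones. All 3 SMN1-labelled libraries lay far above the controls, a log2 fold change of 0.41 (SE 0.03, edgeR adjusted p = 3.40e-10). LARS1, the leucine enzyme, which also acts as a leucine sensor for mTORC1 (chromosome 5, 146113038 to 146182660), was at 211, 214 and 211 CPM in the control and 246, 273 and 265 CPM in the SMN1-labelled libraries. It rose 1.23-fold (log2 fold change 0.30, SE 0.04, edgeR adjusted p = 2.50e-07), without overlap. IARS1, for isoleucine (chromosome 9, 92210207 to 92293756), was at 66.9, 67.7 and 63.7 CPM and then at 76.0, 82.2 and 83.5 CPM, a rise of 1.22-fold (edgeR adjusted p = 3.30e-06). RARS1, for arginine (chromosome 5, 168486445 to 168519299), went from 68.8, 72.3 and 69.6 CPM to 75.6, 82.4 and 85.9 CPM, 1.16-fold (edgeR adjusted p = 0.000226). For RARS1, as for IARS1 and LARS1, SMN1-labelled library 1 was the lowest of its group and still above every control library. TARS1, for threonine, rose by 1.08-fold, from 141, 145 and 144 CPM to 148, 161 and 153 CPM (edgeR adjusted p = 0.0177). The TARS1 call was lost without control library 1 (edgeR adjusted p = 0.0859) or SMN1-labelled library 2 (0.148).

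The cytosolic genes that fell were led by CARS1, the cysteine enzyme (chromosome 11, 3000922 to 3057613, minus strand). CARS1 was at 181, 181 and 187 CPM in the control and at 136, 141 and 134 CPM in the SMN1-labelled libraries. The groups lay well apart, with a log2 fold change of -0.42 (SE 0.03, edgeR adjusted p = 4.45e-10). YARS1, for tyrosine (chromosome 1, 32775237 to 32818153), was at 147, 145 and 151 CPM and then at 121, 119.9 and 116 CPM, 1.24-fold lower (log2 fold change -0.31, SE 0.04, edgeR adjusted p = 7.11e-08). HARS1, for histidine (chromosome 5, 140673904 to 140691862), was at 273, 265 and 283 CPM in the control and 240.2, 236 and 230.1 CPM with the SMN1 label, 1.16-fold lower (edgeR adjusted p = 1.17e-05). In both genes every SMN1-labelled library was below every control library. AARS1, for alanine (chromosome 16, 70252295 to 70289543), fell 1.15-fold, from 186, 177 and 178 CPM to a tight 157, 157 and 157 CPM (edgeR adjusted p = 2.66e-05). MARS1, for methionine (chromosome 12, 57475445 to 57517569), fell 1.12-fold, from 137, 135 and 134 CPM to 121, 123 and 117 CPM (edgeR adjusted p = 0.000261). Its call was lost on the deposited FPKM values (limma on log2(FPKM + 0.1), log2 fold change -0.08, adjusted p = 0.0608). Of the annotated exonic bases of MARS1, 12.4% lie opposite exons of ARHGAP9 and of the stress gene DDIT3. Whether counting used the strand is not stated in the sources, and DDIT3 itself was not called (10.7 ± 0.458 and 9.82 ± 0.361 CPM, mean ± SD, n = 3, edgeR adjusted p = 0.177).

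The other cytosolic genes that fell did so by less. VARS1, for valine, fell by 0.15 on the log2 scale, SARS1, for serine, by 0.10, and WARS1, for tryptophan, by 0.10 (edgeR adjusted p = 0.000822, 0.0144 and 0.0245). On log2(FPKM + 0.1) none of these 3 was called by limma (adjusted p = 0.144, 0.679 and 0.753). The SARS1 call was lost without control library 3 or SMN1-labelled library 3 (edgeR adjusted p = 0.0746 and 0.0727), and the WARS1 call without control library 1 or SMN1-labelled library 2 (0.128 and 0.0597). FARSA and FARSB encode the 2 kinds of subunit of the cytosolic phenylalanine enzyme. FARSA fell by 0.09 (edgeR adjusted p = 0.0385), with 254.8, 257 and 259.8 CPM in the control and 255, 239.6 and 228 CPM in the SMN1-labelled libraries, so that the groups overlapped. Its call was lost without control library 1, 2 or 3 (edgeR adjusted p = 0.0725, 0.0859 and 0.0829), or SMN1-labelled library 2 or 3 (0.113 and 0.253). FARSB stood at 21.9 ± 0.900 and 20.2 ± 1.01 CPM (mean ± SD, n = 3, edgeR adjusted p = 0.0874) and was not called. EPRS1, which joins the glutamate and proline enzymes in one protein, was not called either (175 ± 6.19 and 186 ± 6.52 CPM, edgeR adjusted p = 0.0562), but was higher without control library 3 (0.0227) or SMN1-labelled library 1 (0.0124). QARS1, for glutamine, stood at 211 ± 2.30 and 214 ± 2.35 CPM (edgeR adjusted p = 0.577).

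Among the 7 members that belong to the multisynthetase complex (EPRS1, IARS1, LARS1, MARS1, QARS1, RARS1 and KARS1), 3 rose and 2 fell, and the median log2 change was 0.085. Among the 11 cytosolic genes outside it, 2 rose and 8 fell, with a median of -0.12. The difference between these groups was not tested, and of all genes tested 28.0% were called higher and 28.2% lower. By catalytic class, 6 of the 17 tested class I enzymes rose and 5 fell (median 0.05), and 2 of the 16 class II enzymes rose and 9 fell (median -0.13), with EPRS1, which holds an enzyme of each class, in neither count. The scaffold genes of the complex went in opposite directions: AIMP2 fell 1.34-fold, from 74.7 ± 2.04 to 55.9 ± 2.99 CPM (mean ± SD, n = 3, edgeR adjusted p = 1.31e-08), and AIMP1 rose 1.12-fold, from 46.2 ± 1.57 to 51.7 ± 1.57 CPM (edgeR adjusted p = 0.00237). The remaining scaffold gene, EEF1E1, was counted at only 4 to 12 reads per library and was not tested. A readthrough gene that contains it, EEF1E1-BLOC1S5, was listed separately at 157 to 262 reads.

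GARS1 and KARS1, whose alternative starts give the cytosolic and the mitochondrial enzyme from 1 gene, both fell. GARS1, for glycine (chromosome 7, 30594681 to 30634033, plus strand), was at 287, 286 and 287 CPM in the control and at 241, 256 and 264 CPM in the SMN1-labelled libraries (log2 fold change -0.18, SE 0.04, edgeR adjusted p = 0.000209). KARS1, for lysine (chromosome 16, 75627474 to 75648643, minus strand), was at 288, 284 and 289 CPM and then at 259.5, 266 and 251 CPM, a log2 fold change of -0.15 (SE 0.03, edgeR adjusted p = 0.000544). Neither gene's groups overlapped, and gene counts do not separate the 2 forms of either enzyme. Neither was called on the deposited FPKM values, where limma on log2(FPKM + 0.1) gave adjusted p = 0.0972 for GARS1 and 0.0895 for KARS1.

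Among the mitochondrial enzymes the largest change was in TARS2, for threonine (chromosome 1, 150487364 to 150507609, plus strand). TARS2 was at 90.7, 93.8 and 91.3 CPM in the control and at 64.7, 65.8 and 65.1 CPM in the SMN1-labelled libraries. It fell 1.41-fold with little spread in either group (log2 fold change -0.50, SE 0.04, edgeR adjusted p = 6.76e-11). SARS2, for serine (chromosome 19, 38915266 to 38930896), was at 14.7, 13.3 and 14.8 CPM and then at 10.8, 10.02 and 10.2 CPM, 1.38-fold lower (log2 fold change -0.46, SE 0.07, edgeR adjusted p = 6.43e-06). Its counts are uncertain, since 70.4% of all stretches of its principal transcript as long as a read (150 nt) also occur in AC011455.2, an overlapping annotated gene on the same strand. AARS2, for alanine (chromosome 6, 44299654 to 44313326), fell 1.12-fold, from 70.7, 72.8 and 70.1 CPM to 62.5, 63.3 and 65.04 CPM (edgeR adjusted p = 0.000877). The AARS2 call was lost on the deposited FPKM values (limma on log2(FPKM + 0.1), adjusted p = 0.111).

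IARS2, for isoleucine (chromosome 1, 220094102 to 220148041, plus strand), had the smallest p-value of the mitochondrial genes that rose. It was at 95.4, 92.6 and 92.1 CPM in the control and at 106, 109 and 107 CPM with the SMN1 label, 1.15-fold higher without overlap (log2 fold change 0.20, SE 0.04, edgeR adjusted p = 3.78e-05). EARS2, for glutamate, was called higher by 1.095-fold, from 22.4, 25.03 and 23.2 CPM to 25.6, 25.6 and 26.1 CPM (edgeR adjusted p = 0.038). That call was lost without control library 1 or 3 (edgeR adjusted p = 0.186 and 0.101) or SMN1-labelled library 2 or 3 (0.0700 and 0.0808). MARS2, an intronless gene for methionine, was called higher from 45, 54 and 50 reads in the control and 70, 90 and 76 reads in the SMN1-labelled libraries, 1.66 ± 0.145 against 2.19 ± 0.113 CPM (mean ± SD, n = 3, edgeR adjusted p = 0.0422). Its call was lost without any 1 of the 6 libraries (edgeR adjusted p = 0.0507 to 0.142, the highest without control library 1). The number of mitochondrial genes called higher went from 3 to 1 without control library 1 or 3, or without SMN1-labelled library 2 or 3.

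The remaining mitochondrial members were not called. CARS2, FARS2 and LARS2 had log2 fold changes of -0.11, -0.19 and -0.06, HARS2 0.01, NARS2 0.17, RARS2 0.08, PARS2 0.13, WARS2 0.14 and YARS2 0.05 (edgeR adjusted p from 0.0519 for NARS2 to 0.799 for HARS2). In 3 of them leaving out a library brought a call: NARS2 and RARS2 were higher without SMN1-labelled library 1 (edgeR adjusted p = 0.00113 and 0.0176), and CARS2 was lower without control library 2 or SMN1-labelled library 1 (0.0389 and 0.0261). PARS2 and WARS2 were shallow, at 51 to 121 and 51 to 108 reads per library. VARS2, for valine, had 1 to 4 reads per library, did not pass the filter and was not tested, and 22.0% of its annotated exonic bases overlap GTF2H4 on the same strand.

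Summed over each class, levels changed little. The 17 cytosolic genes summed to 2784 to 2828 CPM in the control and 2742 to 2804 CPM in the SMN1-labelled libraries, a ratio of 0.987. The 16 mitochondrial genes summed to 532 to 537 CPM and 507 to 521 CPM, a ratio of 0.963, with no overlap. Within that sum TARS2 alone went from a mean of 92.0 to 65.2 CPM, and of the 15 tested genes 3 rose and 3 fell. For single genes, 60.7% of all tested had groups without overlap. The direction of both ratios depends on the scaling: as sums of deposited FPKM they were 1.061 and 1.031, and as a share of all reads the cytosolic genes went from 0.271% to 0.285% and the mitochondrial genes from 0.0519% to 0.0532%. These sums carry no test, because the members were chosen as a list.

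Partner genes for the same amino acid were compared through the log2 ratio of cytosolic to mitochondrial CPM in each library. Of 14 pairs tested, 4 lay toward the cytosolic partner without overlap between groups, 4 lay toward the mitochondrial partner without overlap, and 6 overlapped. FARS2 was paired with FARSA and again with FARSB, and EPRS1, EARS2 and PARS2 were not paired. Among single genes, 60.7% of all tested had groups that did not overlap in CPM. No such share was computed for ratios, so 8 of 14 pairs is not read as a result about the pairs. An exact two-sided permutation test of 3 libraries against 3 cannot go below p = 0.1, which these 8 pairs reached (0.175 adjusted over the 14 pairs). The largest difference was in threonine: the TARS1 to TARS2 log2 ratio was 0.63, 0.63 and 0.655 in the control and 1.19, 1.295 and 1.24 in the SMN1-labelled libraries. SARS1 over SARS2 (by 0.36), LARS1 over LARS2 (by 0.36) and RARS1 over RARS2 (by 0.13) also lay toward the cytosolic enzyme. MARS1 over MARS2 (by -0.57), YARS1 over YARS2 (by -0.37), CARS1 over CARS2 (by -0.31) and HARS1 over HARS2 (by -0.23) lay toward the mitochondrial enzyme. In alanine both partners fell, and in isoleucine both rose, with log2 ratios that overlapped between groups. Isoleucine was also the only pair of the 14 in which the mitochondrial gene had more reads, with mean IARS1 to IARS2 log2 ratios of -0.50 and -0.42.

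**Figure D3:**
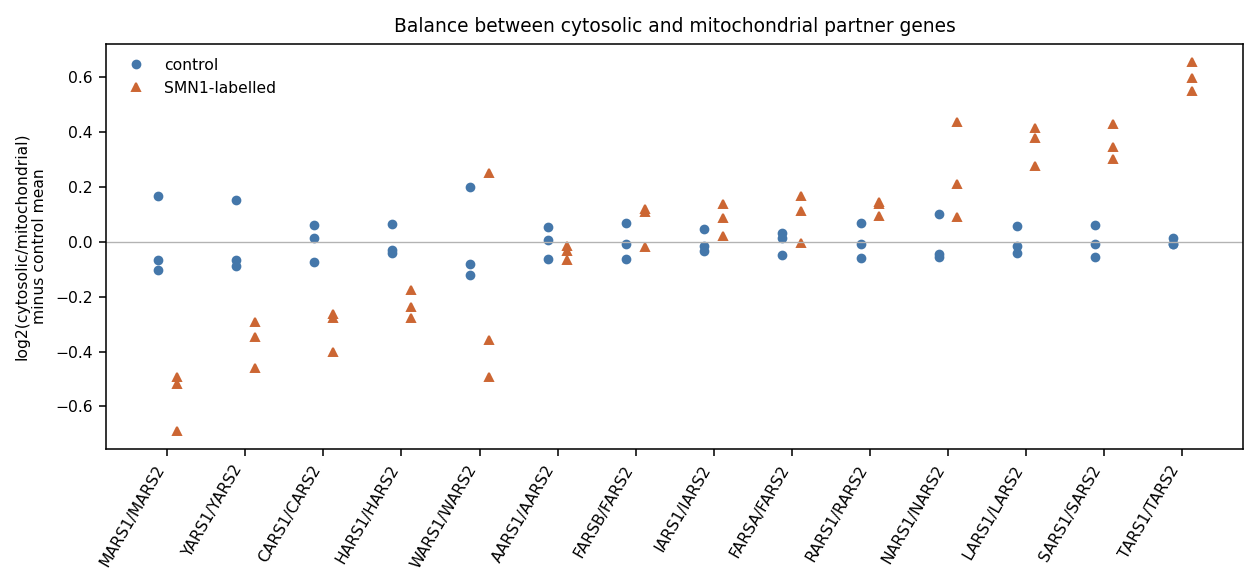
Log2 ratio of cytosolic to mitochondrial CPM for the 14 pairs tested, minus the mean of the 3 control libraries of that pair, with 1 point per library. Control points (circles) lie around 0, and the SMN1-labelled points (triangles) run from -0.57 on average for MARS1/MARS2 to 0.60 for TARS1/TARS2.

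HARS1 and HARS2 start head to head on chromosome 5, so 1 stretch of DNA lies upstream of both. RefSeq places the starts at 140691370 (HARS1, minus strand) and 140691455 (HARS2, plus strand), with 84 bases between them. HARS1 fell and HARS2 did not pass the test. In the GENCODE models the genes overlap, with 11.7% of the exonic bases of HARS2 opposite exons of HARS1 and 8.38% of those of HARS1 opposite HARS2 and WDR55, so that without strand in the counting their reads cannot be told apart there. The bases between the RefSeq starts are shown because both genes are members and share this stretch (chr5:140691371-140691454, GRCh38.p14, read on the HARS2 strand):
HARS1-HARS2: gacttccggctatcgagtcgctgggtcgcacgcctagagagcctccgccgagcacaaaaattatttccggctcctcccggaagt

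Promoters were then searched for the octamer TGATGNAA (or TTNCATCA, the same motif on the other strand), the half-site arrangement known to be bound by ATF4 with a C/EBP partner. RefSeq windows of 300 bases, 250 before and 50 after the start, were listed for 30 of the 35 members, some with more than 1 start. The motif occurred in 7 of the 16 cytosolic or shared members with a window, in 1 of the 14 mitochondrial ones (YARS2) and in 4.46% of 27305 genes. In 5 of the 7 its first base lay within 14 bases of the annotated start, so with only the 250 bases before the start it was found in 3 of 16, 1 of 14 and 3.89% of genes. The matches are shown because the genes that carry them moved both ways (all GRCh38.p14, 5′ to 3′ on the strand of the gene, motif in capitals). The 3 that rose are these:
NARS1 (chr18:57621809-57621848, minus strand): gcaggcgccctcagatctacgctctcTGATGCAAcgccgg
IARS1 (chr9:92293697-92293736, minus strand): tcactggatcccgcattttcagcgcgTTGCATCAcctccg
TARS1 (chr5:33440941-33440980, plus strand): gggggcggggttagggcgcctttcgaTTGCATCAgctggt
The 4 that fell are these:
CARS1 (chr11:3057412-3057451, minus strand): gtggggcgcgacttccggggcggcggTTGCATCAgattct
AARS1 (chr16:70289680-70289719, minus strand): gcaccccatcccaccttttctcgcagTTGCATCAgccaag
GARS1 (chr7:30594819-30594858, plus strand): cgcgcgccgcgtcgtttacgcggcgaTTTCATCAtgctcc
MARS1 (chr12:57488038-57488077, plus strand): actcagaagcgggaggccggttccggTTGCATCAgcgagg
In 6 of these 7 the match reads TTGCATCA or its complement TGATGCAA, and GARS1 has TTTCATCA. These 7 had a median log2 fold change of -0.17, against -0.10 for the 9 cytosolic or shared members whose window held no match. Of those 9, 1 rose and 5 fell. LARS1, which rose, and YARS1 and VARS1, which fell, had no window listed and are in neither group. For comparison, 28.0% of all genes tested were called higher and 28.2% lower. A match is a run of letters and not a measured binding site.

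Genes that sense amino acid supply moved as follows, beside 28.0% of all genes tested called higher and 28.2% called lower. ATF4 itself fell 1.43-fold, from 262, 269 and 275 CPM to 189, 189 and 185 CPM (edgeR adjusted p = 8.37e-12). EIF2AK4, which encodes GCN2, the kinase activated by uncharged tRNA, rose 1.39-fold, from 60.1, 61.4 and 61.4 CPM to 86.1, 81.5 and 86.5 CPM (edgeR adjusted p = 3.54e-10). Of the 21 genes listed for amino acid sensing and the ATF4 arm, 3 rose, 9 fell and 9 were not called (median log2 fold change -0.11). PPP1R15A, which directs dephosphorylation of eIF2, and PHGDH, the first enzyme of serine synthesis, fell 1.57-fold and 1.43-fold (edgeR adjusted p = 1.67e-13 and 5.59e-12). Of the 21 amino acid transporter genes listed, 17 were tested, of which 9 rose and 3 fell, with a median of 0.33. The transporters SLC38A1 and SLC36A1 rose 1.46-fold and 1.57-fold, while the glutamine carrier SLC1A5 fell 1.49-fold, from 128 ± 0.701 to 86.2 ± 3.36 CPM (edgeR adjusted p = 6.58e-12).

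Genes that make and finish tRNA also split, and over all genes tested 28.0% were called higher and 28.2% lower. Of 26 genes of tRNA maturation and export, 7 rose and 7 fell (median 0.03), with XPOT, the tRNA exporter, up 1.39-fold (59.5 ± 1.52 to 82.8 ± 2.59 CPM, edgeR adjusted p = 4.25e-10), and TSEN34, of the splicing endonuclease, and ELAC2, which trims tRNA ends, down 1.26-fold and 1.23-fold. Of 34 tRNA modification genes 9 rose and 17 fell (median -0.12), with TRMT6 up 1.30-fold and DUS1L and OSGEP down 1.26-fold and 1.48-fold. Of 23 genes of RNA polymerase III, which transcribes tRNA genes, and its regulators, 8 rose and 4 fell (median 0.05). The 3 smallest p-values there belonged to genes that fell, POLR3GL 1.43-fold, POLR3K 1.31-fold and GTF3C5 1.27-fold.

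Mitochondria charge glutamine tRNA indirectly, through a transamidase encoded by QRSL1, GATB and GATC. GATC and QRSL1 rose 1.247-fold (18.3 ± 0.781 to 22.8 ± 0.609 CPM) and 1.195-fold, while GATB fell 1.11-fold (edgeR adjusted p = 3.53e-05, 0.00115 and 0.00597). MTFMT, which formylates the initiator tRNA, was not called. Of the genes for editing of mischarged tRNA and for selenocysteine charging, AARSD1, related to the editing domain of the alanine enzyme, fell 1.68-fold, from 56.9 ± 2.10 to 34.0 ± 0.820 CPM (edgeR adjusted p = 1.09e-12), and DTD1, a D-aminoacyl-tRNA deacylase, fell 1.20-fold. SEPSECS, which completes selenocysteine on its tRNA, was called higher at about 1 CPM (1.08 ± 0.237 and 1.66 ± 0.320 CPM, edgeR adjusted p = 0.0204), with overlapping groups.

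The direction of change in the synthetase genes went with their base composition. Across the 34 tested members the log2 fold change had a Spearman's rho of -0.61 with the GC content of the longest transcript and of -0.25 with exonic length, given as a description of genes that share the same libraries. Of the 11 tested members under 45% GC, 6 rose and none fell (0 by edgeR, with FARSB the lowest at -0.12), and of the 23 at 45% or more, 2 rose and 14 fell. Over all genes tested, of any GC content, 28.0% were called higher and 28.2% lower. The same split of all genes is not given here, so the pattern is not shown to be particular to the synthetases. The cytosolic and mitochondrial classes had like median GC contents, 51.5% and 51.2%. When trends with length and GC content were removed within each library, 48.8% of all genes tested were called, 26.0% higher and 22.8% lower. Of the members, 15 kept their call and direction, 6 lost it, 3 gained one and FARSA changed from lower to higher (log2 fold change 0.21, edgeR adjusted p = 2.85e-05). LARS1 (0.06, edgeR adjusted p = 0.139), IARS1 (0.08, 0.0737) and TARS1 (-0.08, 0.0681) were no longer called, nor were SARS1, VARS1 and AARS2. EPRS1 and FARSB became lower and QARS1 higher (edgeR adjusted p = 0.0184, 0.0015 and 0.00101). NARS1 (0.32, edgeR adjusted p = 2.34e-08), CARS1 (-0.43, 6.15e-10), HARS1 (-0.35, 3.81e-08), YARS1 (-0.26, 1.52e-06) and TARS2 (-0.36, 1.96e-08) stayed called in the same direction. Others kept their call at a smaller size: SARS2 went from -0.46 to -0.20, IARS2 from 0.20 to 0.09, RARS1 from 0.21 to 0.105 and AARS1 from -0.20 to -0.105 (edgeR adjusted p after correction = 0.0169, 0.0279, 0.0278 and 0.00967). The median was -0.08 over the cytosolic and 0.03 over the mitochondrial genes. Of the 7 complex members 2 were then higher and 3 lower.

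**Figure D4:**
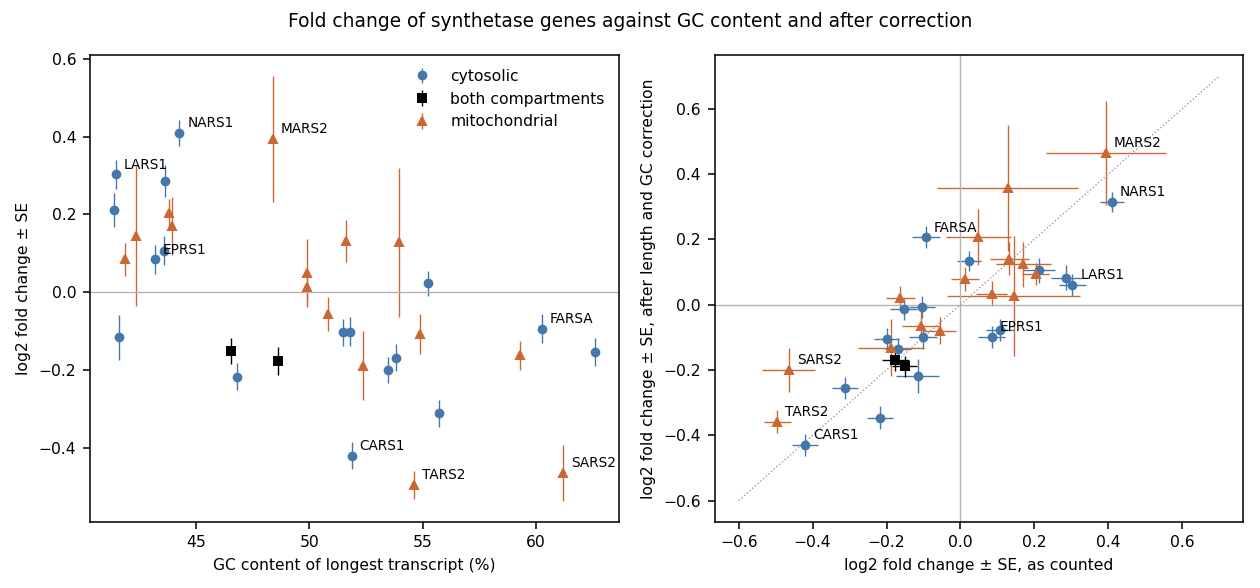
Left, log2 fold change (SMN1-labelled relative to control, ± SE from the edgeR fit) of the 34 tested members against the GC content of the longest annotated transcript. Right, the same fold changes against those after removal of length and GC trends: points on the dotted line did not move, NARS1, CARS1 and TARS2 stay far from 0, and FARSA crosses from -0.09 to 0.21.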

How the data were processed

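Stranded mRNA libraries were read in pairs of 150 nt, per the labels' protocols. The submitters' processing notes name GRCh38, HISAT2 and DESeq2, without versions or order. Counter, annotation and strand setting: not given in the sources used here. Read counts as deposited by the authors are whole numbers for 28862 genes, and the deposited FPKM table holds the authors' length- and depth-scaled values for 28501 genes, to 2 decimals. 

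Counts were tested with edgeR 4.0.16 in R 4.3.3 (TMM, default filterByExpr, quasi-likelihood, two-sided, Benjamini-Hochberg over 15829 genes, threshold 0.05). Each SE was derived from the fold change and its F statistic (absolute log2 change divided by the root of F). Gene models, GC content and coordinates come from GENCODE v29 on GRCh38 and had values for 28038 of 28862 listed genes, and promoters come from RefSeq on GRCh38.p14. The length and GC correction used splines with 5 degrees of freedom each as offsets. Alternatives were DESeq2 1.42.0, limma-voom (limma 3.58.1), other scaling factors and filters, the replicate block, leaving out each library, FPKM and the correction. In simulated counts for 15496 genes the edgeR test of SMN1-labelled against control libraries recovered 54.2% of genes changed 1.25-fold and 92.0% of those changed 2-fold, with 14 false calls among 15300 unchanged genes. Far fewer genes were changed there than the 56.2% called in the data, so these rates do not carry over to the data. Members and lists were chosen with earlier results of these data known. Values per library are given for GARS1, KARS1 and, among called genes at 5 CPM or more, up to 5 cytosolic and 4 mitochondrial genes with the largest and as many with the smallest fold change; FARSA and MARS2 were added after their values were seen. From each other list come up to 3 called genes in order of p, and ATF4 and EIF2AK4; EEF1E1, MTFMT and DDIT3 were added later. A search of protein sequences was not run.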

Additional observations from a re-analysis of the deposited data

How the results depend on the processing

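Members were counted under 17 alternatives. For the 34 tested members 479 of 578 member results kept their direction and side of the threshold, 60 lost a call, 27 gained one and 12 changed sign. Of the 22 called members 9 kept call and direction in all 17 (NARS1, RARS1 and IARS2 higher, CARS1, YARS1, HARS1, AARS1, TARS2 and SARS2 lower). The sign changes were HARS2 with upper-quartile factors (-0.003), PARS2 without control library 1 (-0.029) or SMN1-labelled library 2 (-0.058), YARS2 without control library 3 (-0.009), WARS2 without SMN1-labelled library 2 (-0.023), LARS2 on log2(FPKM + 0.1) (0.030) and log2(FPKM + 1) with or without a filter (0.024 and 0.024), and after the length and GC correction EPRS1 (-0.100), FARSA (0.206), TARS1 (-0.077) and AARS2 (0.019). The cause was not tested.

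The number of mitochondrial genes called higher, 3, was 1 with DESeq2 or upper-quartile factors, 6 on log2(FPKM + 0.1) and log2(FPKM + 1), and 5 on log2(FPKM + 1) without a filter. Cytosolic genes called lower, 9, were 4 and those called higher, 5, were 7 on each of these FPKM settings, where the cytosolic median was -0.013, -0.012 and -0.012 and the mitochondrial median 0.137, 0.094 and 0.084, with differences between the medians of -0.106 and -0.096 on the latter settings against -0.150. Genes called lower over the whole table, 4466, were 2883 on log2(FPKM + 1) without a filter. The median log2 fold change over all genes was 0.087, 0.062 and 0.004 on these FPKM settings in turn, against 0.001 on the counts. The cytosolic median, -0.102, was -0.117 with upper-quartile factors, -0.081 without a filter on low counts, -0.113 with the stricter filter and -0.077 after the correction. Summed FPKM gave class ratios of 1.061 (cytosolic) and 1.031 (mitochondrial) against 0.987 and 0.963. The promoter motif was in 8 members over the whole window and in 4 over the 250 bases before the start.

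Leaving out each library in turn gave 1 to 4 mitochondrial genes higher and 3 to 4 lower, 4 to 6 cytosolic genes higher and 7 to 9 lower, a cytosolic median of -0.120 to -0.082, a mitochondrial median of -0.023 to 0.071 and a difference of -0.191 to -0.080, with 3965 to 4335 genes higher and 4049 to 4346 lower over the whole table. Libraries that share a replicate number did not deviate together (correlations of 0.005, 0.013 and 0.003), so the numbers were not taken as pairs. Among libraries with unlike numbers the highest correlation was 0.008, between control library 1 and SMN1-labelled library 3. With the replicate block 5 cytosolic genes were higher and 8 lower, 2 mitochondrial genes higher and 3 lower, and FARSA and MARS2 lost their calls (edgeR adjusted p = 0.053 and 0.0502). The planned search of protein sequences was not run. Depth limits VARS2, MARS2, PARS2 and WARS2. Without SMN1-labelled library 1 PARS2 had a log2 fold change of 0.320, and without SMN1-labelled library 3 WARS2 one of 0.324.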
